A study of Mus musculus with 4 samples.

Results

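The genes described here are the mouse ubiquitin-conjugating enzymes and the ubiquitin-specific proteases, taken as every probe other than a control whose gene name in the scanner files begins with Ube2, or with Usp followed by a digit. This rule uses names and no measured value. It found 188 probes for 81 genes, of 41174 probes on the array, with 31 genes named Ube2 and 50 named Usp. Of the Usp names, Usp6nl belongs to a GTPase-activating protein and Usp52 is now called Pan2, a subunit of a poly(A) nuclease, so neither is an active deubiquitinase; neither entered the test.

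The samples were pools of 50 mouse oocytes. Treated pools were put under a hydrostatic pressure of 20 MPa for 60 min at 37 °C, and control pools were kept alongside without pressure. Each of 4 arrays compared 1 treated pool, labelled with Cy5 and read in red, with 1 control pool, labelled with Cy3 and read in green, so the dye and the treatment cannot be told apart. The labels give no strain or age. The series' design text calls the 4 replicates biological; whether the pools came from separate animals is not said, so p-values measure only the spread between these arrays, and their number limits the precision. A log2 ratio above 0 means more signal in the treated pool.

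Ubiquitin is a small protein that cells attach to other proteins, most often to mark them for the proteasome. An E1 enzyme activates it, an E2 (Ube2) enzyme carries it as a thioester on a cysteine, and an E3 ligase brings the loaded E2 to the substrate. Deubiquitinases, of which the USP cysteine proteases are the largest family, take it off again. A fully grown oocyte transcribes little and lives on stored messenger RNA, and its meiosis depends on the timed destruction of cyclin B and securin through an E3 called the anaphase-promoting complex.

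To be kept, a probe had to be well above background in 1 channel on 3 or 4 of the 4 arrays, and a gene was read from its brightest kept probe. By this filter 45 of the 81 members were tested, 21 of 31 Ube2 genes and 24 of 50 Usp genes. The kept probes numbered 38 of 81 for Ube2 and 29 of 107 for Usp. Of the 45 tested, 33 were well above background in both channels on all 4 arrays, and 9 were detected on fewer arrays in the treated than in the control channel, against 1 (Usp19) with the reverse; those were 20.0% and 2.22% of the members, beside 31.6% and 6.36% of all genes tested. A member that passed through 1 channel only was more likely to be higher in it, so counts over the tested members describe those members alone.

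Several facts of the whole series bear on what follows. Of 43379 spots an array, the treated channel had 7049 to 11155 well above background and the control channel 8309 to 10837. The array of replicate 1 ran against the rest: its r with each other array, taken across all probes, was -0.19 to -0.15, and the other pairs had 0.086 to 0.29. Its treated channel had the more spots well above background (11155 against 8309), where on the other arrays the control channel did. The labels name the same dyes for all 4 arrays, and whether the dyes of replicate 1 were exchanged is not known. Its ratios keep the labelled direction here, values that rest on it are also given without it, and "replicate 1 turned" below means that its sign was reversed. Of 13 oocyte markers on the array, 7 (Gdf9, Bmp15, Zp3, Dppa3, Oosp1, Oog1 and Kit) were well above background on 4 arrays in a channel, and Nlrp5 was on none. Of 17 cumulus and granulosa markers 4 reached 4 arrays (Ptgs2, Tnfaip6, Inha and Cyp19a1), and 7 (Amh, Foxl2, Cyp11a1, Fshr, Lhcgr, Star and Kitl) were on none. Summed signals given here cover every probe of a list, dim ones included, so part of each sum is background level. The summed signal of the cumulus and granulosa list, in normalised intensity units, ran from 2388 to 5186 in treated and from 2648 to 4339 in control pools. It was lower in the treated pool on 3 of 4 arrays, and its part in the results below was not tested. The summed oocyte markers ran from 79647 to 208884 in treated and from 112042 to 138554 in control pools, lower in the treated pool on 1 array. Of 6 blood and immune markers, Hba-a1 and Srgn reached 4 arrays and Hbb-b1 and Cd68 were on none. Their summed signal was 2050 to 3129 in treated and 2424 to 4305 in control pools, lower in the treated pool on all 4 arrays. Single markers differed, as the mean log2 ratio was -0.52 for Srgn and 0.28 for Hba-a1. The part of this list was not tested either. In pools, fewer cells and less RNA per cell cannot be told apart.

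The comparison asks whether transcripts of the enzymes that attach ubiquitin, and of those that remove it, differed after pressure. None of the 45 members passed the test. With limma and Benjamini-Hochberg adjustment over 6921 genes, 0 members were called, as were 0% of all genes, and the lowest adjusted p among the members was 0.93. With the background correction and normalisation used here, no member differed 2-fold in its mean. Of all genes, 0.896% were at least 2-fold lower and 1.18% at least 2-fold higher. The means ran from -0.67 to 0.37 for Ube2 genes and from -0.86 to 0.93 for Usp genes. Without adjustment 2 members, Usp15 and Usp42, were lower at a p under 0.05 (3.44% of all genes) and 0 were higher (0.722% of all genes). Without replicate 1 it was 3 lower (Usp45, Usp15 and Usp16, beside 4.60% of all genes) and 1 higher (Usp7, beside 6.33%). Again 0 passed, with a lowest adjusted p of 0.24 from limma. The 2-fold result depended on the setting. Most settings were read only for the members named with array values. With processed signals Usp42 (-1.93), Usp47 (-1.58) and Ube2w (-1.18) were more than 2-fold lower. Usp19 (1.37), Usp46 (1.16) and Usp7 (1.16) were then more than 2-fold higher. Median centring put Usp15 (-1.37), Usp42 (-1.31), Ube2d2 (-1.09), Ube2a (-1.01) and, narrowly, Ube2e2 more than 2-fold lower, and none higher. Usp7 was more than 2-fold higher with no background subtraction (1.04), array weights (1.51) or replicate 1 turned (1.01). Usp45 was at -1.14 with replicate 1 turned. Leaving out 1 array put Usp7, Usp42, Usp46 or Usp9x beyond 2-fold in some fits. The share of all genes beyond 2-fold was not counted in these settings.

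**Figure D1:**
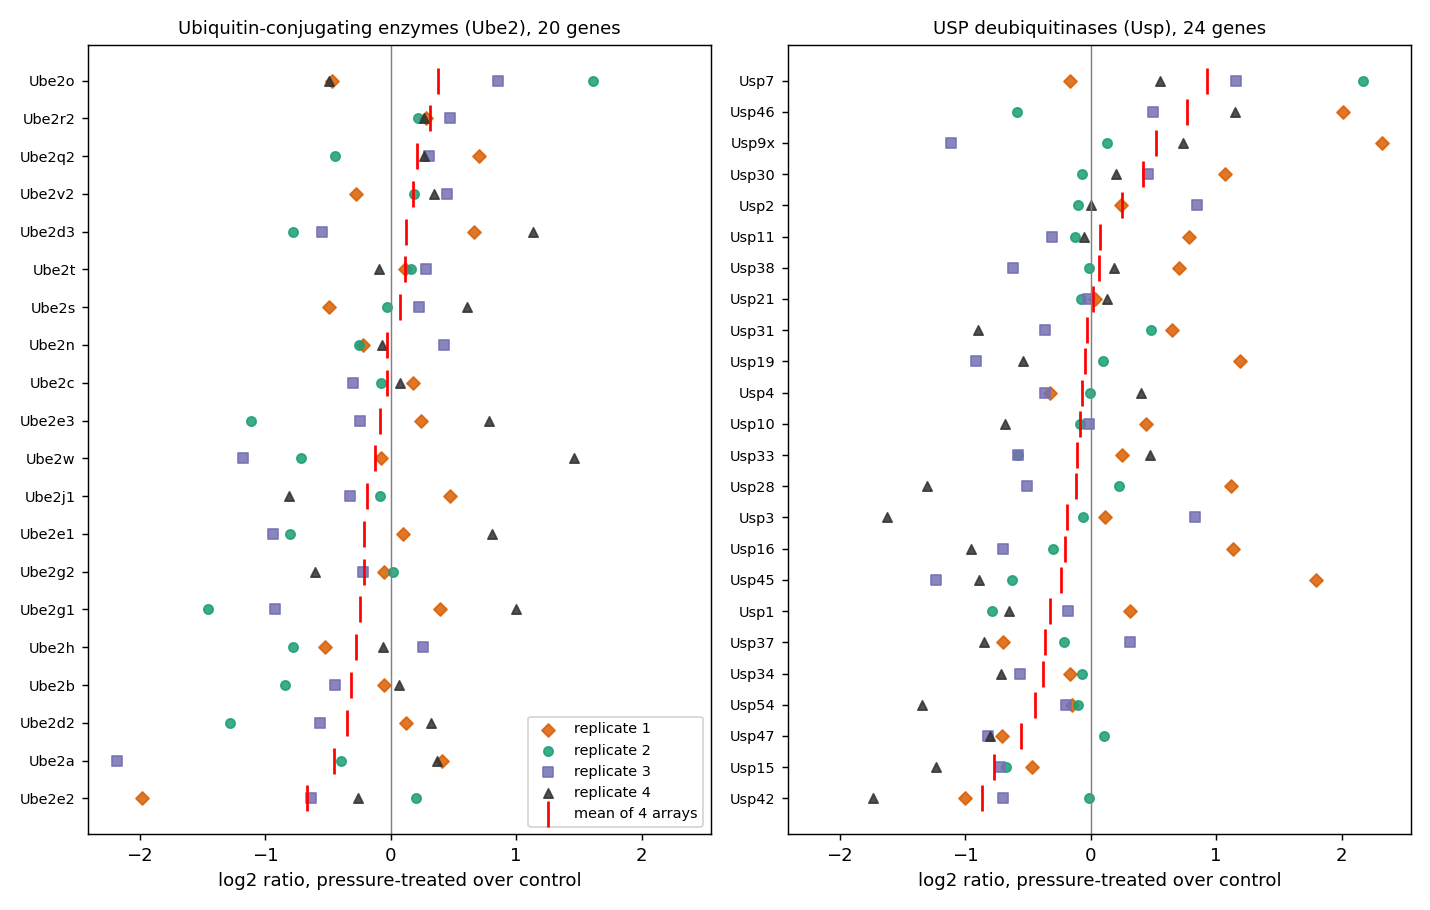
Log2 ratio of treated over control (horizontal axis) for 20 of the 21 Ube2 genes tested (left) and the 24 Usp genes tested (right), ordered by their mean; each symbol is 1 array and the red bar is the mean of 4 arrays. Most genes have arrays on both sides of 0; Usp15, Usp42, Usp34 and Usp54 lie below 0 on all 4 and Ube2r2 above 0 on all 4.

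As groups, E2 enzymes and deubiquitinases had nearly the same middle value. The median of the gene means was -0.082 for Ube2 and -0.097 for Usp, beside -0.016 for all genes tested. Below 0 were 13 of 21 Ube2 means and 16 of 24 Usp means, where 52.4% of all genes lay below 0; the other 8 Ube2 and 8 Usp means lay above 0, where 47.6% of all genes did. Array by array, from replicate 1 to 4, the Ube2 median stood at 0.11, -0.25, -0.24 and 0.27, which averaged -0.030 ± 0.26 (SD, n = 4). The Usp median stood at 0.28, -0.073, -0.36 and -0.67, which averaged -0.21 ± 0.40 (SD, n = 4). On replicate 1, 7 of 24 Usp and 0 of 21 Ube2 genes were above a log2 ratio of 1, beside 8.55% of all genes with 4 values. On replicate 4, 5 Usp and 0 Ube2 genes were below -1, beside 12.4%. Other arrays or directions went the other way. On replicate 2, 3 Ube2 and 0 Usp genes were below -1, beside 3.82%. On replicate 4, 2 Ube2 genes and 1 Usp gene were above 1, beside 8.71%. Neither group kept 1 sign across arrays.

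The difference between the groups, Ube2 minus Usp, was -0.17, -0.18, 0.12 and 0.93 on replicates 1 to 4, with a mean of 0.18 ± 0.52 (SD, n = 4). It was smaller than the spread between arrays and changed sign among them. The wide gap was on replicate 4, where the middle 50% of genes ran from -0.095 to 0.60 for Ube2 and from -0.91 to 0.19 for Usp and so still overlapped. Taken from gene means, the difference was 0.015, and -0.13 without replicate 4.

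**Figure D2:**
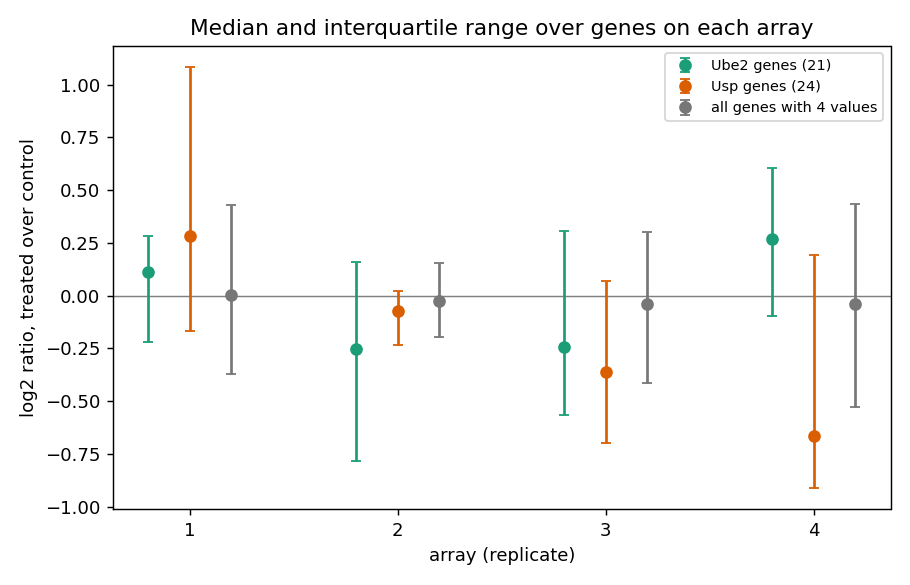
Median log2 ratio of treated over control on each array (points) with the interquartile range over genes (bars), for the tested Ube2 genes, the tested Usp genes and all genes with 4 values. The Ube2 and Usp medians lie close on replicates 1 to 3 and apart on replicate 4, at 0.27 and -0.67.

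Several E2s shared a pattern of sign across the arrays. Ube2a, Ube2c, Ube2d2, Ube2d3, Ube2e1, Ube2e3 and Ube2g1 lay above 0 on replicates 1 and 4 and below 0 on replicates 2 and 3. That was 7 of 21 Ube2 genes, beside 3 of 24 Usp genes and 8.80% of all genes with 4 values; the pattern was chosen after its values were seen and was not tested. Over the 21 Ube2 genes the log2 ratios of replicates 2 and 3 correlated at r = 0.56, and those of replicate 4 with replicates 2 and 3 at -0.61 and -0.44. Over the 24 Usp genes the same pairs had 0.38, 0.16 and 0.23. Replicates 1 and 4 correlated at 0.27 over the Ube2 genes and at 0.41 over the Usp genes, so that part of the pattern was not particular to E2s. These are descriptions across genes read on shared arrays, with no test.

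By role, the E2s that work with the anaphase-promoting complex come first in the oocyte. Ube2c, which starts ubiquitin chains on cyclin B and securin, had log2 ratios of 0.18, -0.079, -0.30 and 0.076 on replicates 1 to 4, with a mean of -0.031 ± 0.10 (SE, n = 4). Its control channel was above background on 4 arrays and its treated channel on 2. With processed signals its mean was -0.79 ± 0.80 (SE, n = 4), so its value and spread depended on the setting. Ube2s, which lengthens those chains, had -0.49, -0.029, 0.22 and 0.60, a mean of 0.077 ± 0.23 (SE, n = 4). Both genes had arrays on either side of 0, and the mean of Ube2s lay below 0 with median centring and without replicate 4.

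Ube2m, an E2 for the ubiquitin-like protein NEDD8, and Ube2l3, which serves HECT ligases, were not tested, as neither was well above background on any array. Ube2n, which builds signalling chains with a Ube2v partner, had log2 ratios of -0.22, -0.25, 0.43 and -0.073 on replicates 1 to 4, a mean of -0.030 ± 0.16 (SE, n = 4). Its partner Ube2v2 had a mean of 0.18, and Ube2v1 was not well above background on any array.

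Ube2r2, an E2 of the Cdc34 type that serves cullin-based ligases, was the one E2 above 0 on every array. Its log2 ratios were 0.28, 0.22, 0.47 and 0.27 on replicates 1 to 4, with a mean of 0.31 ± 0.055 (SE, n = 4). In that direction lay 1 of 21 Ube2 genes and 0 of 24 Usp genes, beside 2.94% of all genes with 4 values. Ube2r2 did not pass (limma's unadjusted p = 0.11, adjusted p = 0.93), and median centring put its mean at -0.23.

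The Ube2d and Ube2e enzymes are broadly acting E2s that serve many RING ligases. Ube2d2 (now Ube2d2a) had log2 ratios of 0.12, -1.28, -0.56 and 0.32 on replicates 1 to 4, a mean of -0.35 ± 0.36 (SE, n = 4). Ube2d3 had 0.67, -0.78, -0.55 and 1.14, a mean of 0.12 ± 0.46 (SE, n = 4), which was below 0 without replicate 1 or 4 and with median centring, processed signals, array weights or the mean over its probes. By their brightest probes the paralogs thus had the same sign on each array. The other kept probes of Ube2d3 did not follow. On replicates 1 to 4 they read 1.08, -0.95, 0.26 and -1.20, then -0.14, 0.17, -0.097 and 0.46, then -0.37, 0.089, 0.0028 and -0.39. Ube2e2 had -1.98, 0.20, -0.63 and -0.26, a mean of -0.67 ± 0.47 (SE, n = 4). That was the lowest of the group with replicate 1 only: without it the mean was -0.23, above those of Ube2a (-0.74) and Ube2d2 (-0.51), and with replicate 1 turned it was 0.32.

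Ube2a and Ube2b, the Rad6-type E2s of histone ubiquitination and DNA damage tolerance, both had means below 0. Ube2a had log2 ratios of 0.41, -0.40, -2.19 and 0.37 on replicates 1 to 4, a mean of -0.45 ± 0.61 (SE, n = 4) that was 0.13 without replicate 3. Ube2b had -0.050, -0.85, -0.45 and 0.064, a mean of -0.32 ± 0.21 (SE, n = 4). Neither was on 1 side of 0 throughout. Among the E2s of the endoplasmic reticulum, which feed the degradation of misfolded proteins, Ube2g1, Ube2g2 and Ube2j1 had means of -0.25, -0.21 and -0.19; Ube2g1 was at 0.15 without replicate 2 and Ube2j1 at 0.022 without replicate 4. Ube2g2 had -0.051, 0.017, -0.22 and -0.60 on the single arrays.

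Of the remaining E2s, Ube2h had log2 ratios of -0.52, -0.78, 0.26 and -0.061 on replicates 1 to 4, a mean of -0.28 ± 0.23 (SE, n = 4). Ube2w, an E2 that modifies the amino terminus of its substrates, had -0.075, -0.72, -1.18 and 1.46, a mean of -0.13 ± 0.58 (SE, n = 4). The spread of Ube2w across arrays was the wider, and its mean was above 0 without replicate 2 or 3. With processed signals the mean of Ube2w was -1.18 ± 1.62 (SE, n = 4). The means of Ube2e1, Ube2e3, Ube2q2, Ube2t and Ube2o were -0.21, -0.082, 0.21, 0.11 and 0.37. Leaving out 1 array turned the sign of Ube2e1 (0.033 without replicate 3), Ube2e3 (0.26 without replicate 2) and Ube2o (-0.038 without replicate 2), and Ube2q2 was at -0.14 with replicate 1 turned. None of these passed.

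Among the deubiquitinases Usp15, a protease of signalling and splicing factors, had the smallest unadjusted p of all members. Its log2 ratios were -0.47, -0.68, -0.72 and -1.23 on replicates 1 to 4. On the log2 signal scale after normalisation its treated pools read 8.77, 8.45, 9.30 and 7.84 and its control pools 9.24, 9.13, 10.02 and 9.07. Each treated pool was below the control pool of its own array, while the ranges of the 2 groups of pools overlapped. The mean was -0.77 ± 0.16 (SE, n = 4), with limma's unadjusted p = 0.0088 and adjusted p = 0.93. Leaving out 1 array gave -0.88 to -0.62, and every other setting had a mean below 0, from -1.37 with median centring to -0.54 with replicate 1 turned.

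Only 1 of the 7 probes of Usp15 was kept, and its sequence is shown because the value rests on it. The probe lies on the minus strand of chromosome 10 at 122604985 to 122605044 of build mm7, as the files give it, and comes from the cDNA AK122301. Its last 30 bases, chr10:122604985-122605014, are given 5′ to 3′ with the poly(A) signal AATAAA in capitals.
Usp15: tgtttatttatacagatttcAATAAAgcta
The hexamer AATAAA, searched in the sense strand, was found in 9 of 188 member probes (4.79%) and in 4.78% of all probes, and its reverse complement TTTATT in 2.13% and 4.25%. A match describes letters only.

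Usp42, Usp34 and Usp54 were the other deubiquitinases below 0 on all 4 arrays. That made 4 of 24 Usp genes and 0 of 21 Ube2 genes, where 9.34% of all genes with 4 values were below 0 throughout. Usp42, a histone deubiquitinase, had log2 ratios of -1.01, -0.018, -0.70 and -1.73 on replicates 1 to 4, a mean of -0.86 ± 0.36 (SE, n = 4; limma's unadjusted p = 0.033, adjusted p = 0.93). Each channel of Usp42 was well above background on 3 arrays. On replicate 2 its treated and control pools read 6.28 and 6.30 on the log2 signal scale. Both were dim, so its sign on that array rests on a small difference. The mean of Usp42 depended on the setting, from -0.36 with replicate 1 turned to -1.93 with processed signals, and was -0.57 without replicate 4. Usp54, long classed as lacking protease activity, had -0.15, -0.10, -0.20 and -1.34, a mean of -0.45 ± 0.30 (SE, n = 4). Without replicate 4 it was at -0.15.

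Usp34, a very large protease that acts on the Wnt pathway, had log2 ratios of -0.17, -0.069, -0.57 and -0.72 on replicates 1 to 4, a mean of -0.38 ± 0.16 (SE, n = 4). Its other kept probes went the opposite way. All lie on the plus strand of chromosome 11, and their first 30 bases are shown in order along the gene, since they give the contrary readings.
Usp34 probe at chr11:23408487-23408516: agaataactgtgctggaatgtaaaacacat
Usp34 probe at chr11:23439131-23439160: gtacccttatcacaaacctgataaatcagt
Usp34 probe at chr11:23441430-23441459: tgtagtggctttcatttaatatggctttct
In this order the mean log2 ratios were 0.30, 0.42 and -0.38, and the last, the brightest, gave the value above. The mean over the 3 probes was 0.11.

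On the higher side Usp7, which removes ubiquitin from Mdm2 and thereby acts on p53, had log2 ratios of -0.17, 2.17, 1.16 and 0.55 on replicates 1 to 4. Its treated pools read 9.16, 10.34, 10.59 and 9.99 on the log2 signal scale and its control pools 9.32, 8.17, 9.43 and 9.44. Replicates 2 to 4 were higher in treated pools and replicate 1 was not. The mean was 0.93 ± 0.49 (SE, n = 4; limma's unadjusted p = 0.062, adjusted p = 0.93). It was 1.29 without replicate 1 (unadjusted p = 0.020, adjusted p = 0.35), 0.51 without replicate 2 and 0.28 with median centring. The single Usp7 probe lies on the minus strand of chromosome 16, and its first 30 bases are shown as the sequence behind the highest mean of all members.
Usp7 probe at chr16:8363634-8363663: agagccttttagcaagggcgcatgctcgct

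Usp46, Usp9x and Usp30 had their highest values on replicate 1. Usp46 had log2 ratios of 2.01, -0.59, 0.50 and 1.15 on replicates 1 to 4, a mean of 0.77 ± 0.55 (SE, n = 4) that was 0.35 without replicate 1. Usp9x, an X-linked protease of many substrates, had 2.32, 0.13, -1.11 and 0.74, a mean of 0.52 ± 0.71 (SE, n = 4) that was -0.082 without replicate 1 and -0.030 with median centring. Usp30, a protease of the outer mitochondrial membrane that opposes mitophagy, had 1.07, -0.071, 0.46 and 0.20, a mean of 0.41 ± 0.24 (SE, n = 4), or 0.20 without replicate 1.

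Another group was above 0 on replicate 1 and below 0 on the other 3 arrays: Usp1, Usp10, Usp11, Usp16 and Usp45, or 5 of 24 Usp genes, with Ube2j1 among 21 Ube2 genes and 12.5% of all genes with 4 values. Usp16, a histone deubiquitinase, had log2 ratios of 1.13, -0.30, -0.70 and -0.95 on replicates 1 to 4, a mean of -0.20 ± 0.46 (SE, n = 4). Usp45 had 1.79, -0.63, -1.23 and -0.89, a mean of -0.24 ± 0.69 (SE, n = 4). Without replicate 1 their means were -0.65 and -0.92, with unadjusted p of 0.032 and 0.0087 and adjusted p of 0.41 and 0.24 from limma. Usp45 was singled out after its values were seen, and was at 0.091 without replicate 3; Usp16 was at 0.045 without replicate 4.

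The remaining deubiquitinases lay nearer 0 or varied in sign. Usp47, which acts on the base excision repair polymerase, had log2 ratios of -0.71, 0.11, -0.82 and -0.80 on replicates 1 to 4, a mean of -0.56 ± 0.22 (SE, n = 4; limma's unadjusted p = 0.053, adjusted p = 0.93). It was at -1.58 with processed signals, and its treated channel was above background on 3 arrays. Usp4, a paralog of Usp15, had -0.32, -0.0025, -0.37 and 0.40, a mean of -0.073 ± 0.18 (SE, n = 4), above 0 without replicate 1 or 3. Usp19, a membrane-anchored protease of the endoplasmic reticulum, had 1.19, 0.10, -0.92 and -0.54, a mean of -0.043 ± 0.46 (SE, n = 4). Processed signals put it at 1.37, and its control channel was above background on 2 arrays. Usp33 had 0.25, -0.58, -0.58 and 0.47, a mean of -0.11 ± 0.28 (SE, n = 4), above 0 without replicate 2 or 3. The 10 other Usp genes tested, among them Usp2, Usp3, Usp28 and Usp37, had means from -0.37 to 0.25, and those of Usp3, Usp10, Usp11, Usp21, Usp28, Usp31 and Usp38 changed sign when 1 array was left out.

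Members with several kept probes show how far a single log2 ratio can be read. Of 14 such genes, 7 had probes whose means shared a sign (among them Ube2b, Ube2d2, Ube2g1, Ube2q2, Ube2r2 and Ube2s), or 50.0%, beside 56.2% of the 1053 genes with several kept probes. In Ube2d3, Ube2n, Ube2w, Usp4, Usp19, Usp33 and Usp34 they differed in sign. The only kept probes of Ube2r2 overlap by 44 bases and those of Ube2s share 52, so their like sign is no separate reading. The probes of Ube2d3 had means of -0.20, 0.10, -0.17 and 0.12, those of Ube2n -0.030 and 0.43, and those of Ube2w -0.13 and 0.0012.

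Pairs of probes of a gene that shared at least 12 bases gave closer values than pairs that did not, some of which come from different cDNAs. All overlapping pairs were of Ube2 genes, and Ube2r2 and Ube2s had no other pair of kept probes. The 2 kinds of pair thus come largely from different genes. The mean absolute difference in log2 ratio over 4 arrays had a median of 0.12 over 4 pairs that shared 19 to 52 bases, from 0.082 to 0.17. Over 29 pairs that shared 9 bases at most it was 0.70, from 0.19 to 1.14. Pairs of a gene have probes in common, so they are no replicates. Over all named genes the medians were 0.17 for 107 overlapping and 0.60 for 1226 other pairs.

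Of the overlapping pairs 3 are printed, because they are the nearest thing to a repeat measurement among the members. Each is a run of 30 bases with bases of the longest shared run in capitals, in mm7 positions where the probe aligned over its whole length.
Ube2b probe 1, chr11:51943443-51943472, minus strand: GGCCATTGTTGAGCAAAGCtggaatgattc
Ube2b probe 2, chr11:51943455-51943484, minus strand: gaagagagtttcGGCCATTGTTGAGCAAAG
Ube2r2 probe 1, chr4:41329605-41329634, plus strand: gtttttagattcTTGAAGAATTAGTCTGTT
Ube2r2 probe 2, chr4:41329605-41329634, plus strand: gtttttagatttTTGAAGAATTAGTCTGTT
Ube2s probe 1, chr7:4382183-4382212, minus strand: agaaaaagTTGGACAAGAAGCGAGCACTGA
Ube2s probe 2: TTGGACAAGAAGCGAGCACTGAGGCGACTG
The Ube2b probes overlap by 19 bases with 0 differences. Probe 1 gave the values of the gene above, and probe 2 had log2 ratios of 0.082, -0.68, -0.12 and 0.0037 on replicates 1 to 4. Array by array they differed by 0.32 at most, and both were lowest on replicate 2.

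The Ube2r2 probes overlap by 44 bases with 2 differences, C3T and C16T, given as probe 1's base, its position from the 5′ end of probe 1, and probe 2's base. Probe 2 read 0.17, 0.082, 0.38 and 0.13 on replicates 1 to 4, also above 0 on every array, but with this overlap it is no separate reading. A further Ube2r2 probe was not kept, being well above background on 2 arrays in the control and 0 in the treated channel. It read -0.041, 0.013, -0.19 and -1.23. Probe 2 of Ube2s comes from the cDNA AK003078, which the files place on chromosome 9 whereas probe 1 lies on chromosome 7, yet they share 52 bases. Transcripts of these places cannot be told apart, and the probes' means were 0.024 and 0.077; probe 2, the brighter, gave the value of Ube2s above. Between different members the longest run shared by kept probes was 13 bases.

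**Figure D3:**
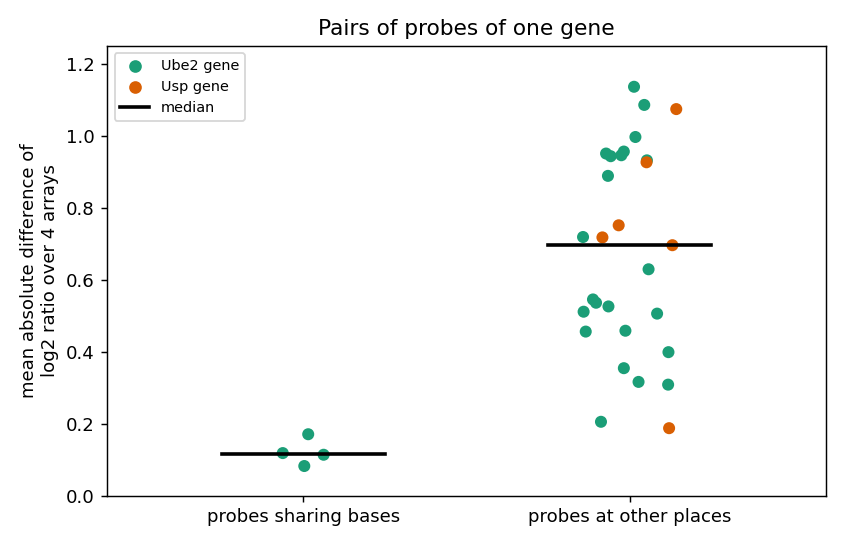
Mean absolute difference in log2 ratio over 4 arrays (vertical axis) for each pair of kept probes of 1 member gene, split by whether the probes share at least 12 bases; lines are medians. The 4 overlapping pairs lie between 0.082 and 0.17 and the 29 others between 0.19 and 1.14.

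Where a probe lay along its gene was related to whether it was read at all. RNA was amplified in 2 rounds from 240 pg. For 58 members with several probes on 1 chromosome and strand, the probe nearest the 3′ end was well above background in 47.2% of the readings (4 arrays in 2 channels) and the probe nearest the 5′ end in 17.9%. The 3′ probe was read more often in 36 genes, equally in 14 and less often in 8. The shares were 46.0% and 23.0% for Ube2 and 48.1% and 14.0% for Usp, beside 33.6% and 15.3% for 8358 named genes. Ube2a, Ube2e2, Ube2o, Ube2q2, Ube2t, Usp16, Usp34 and Usp46 had 8 of 8 readings at the 3′ probe and 0 at the 5′ probe, and Ube2e3 and Ube2v2 had the reverse. In Ube2e2, Ube2e3, Ube2t, Usp16, Usp34 and Usp46 the 5′ and 3′ probes come from different cDNAs. There the position of a probe and the transcript it reads cannot be told apart. In Ube2a, Ube2o, Ube2q2 and Ube2v2 both probes come from the same transcript record. Strand was taken from the order of the coordinates in the files.

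**Figure D4:**
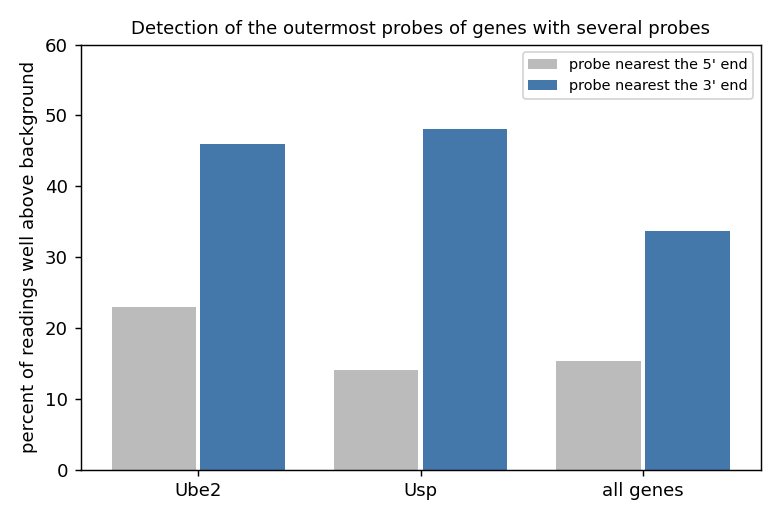
Percent of readings well above background for the probe nearest the 5′ end (grey) and nearest the 3′ end (blue) of genes with several probes, for Ube2, Usp and all named genes. The 3′ probe is read more often in each group, at 46.0%, 48.1% and 33.6%.

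The 36 members that were not tested divide by detection. No probe was well above background on any array for 6 Ube2 genes (Ube2d1, Ube2j2, Ube2l3, Ube2l6, Ube2m and Ube2v1) and for 15 Usp genes, among them Usp5, which recycles free ubiquitin chains, Usp18, which removes the interferon-induced protein ISG15, and the Y-linked Usp9y. The other 4 Ube2 genes (Ube2f, Ube2q, Ube2u and Ube2z) and 11 Usp genes were well above background on 1 or 2 arrays. Usp14, the deubiquitinase bound to the proteasome, was so on 2 arrays in each channel. These readings say only that the probes were dim here.

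The tested probes of both groups had like base composition, with a median GC of 40.0% for Ube2 (35.0% to 55.0%) and 41.7% for Usp (26.7% to 51.7%). Over the 45 members the log2 ratio correlated with GC at r = -0.094, 0.30, 0.24 and -0.017 on replicates 1 to 4, a description with no test. The median SD across arrays was 0.48 for Ube2 and 0.55 for Usp genes, beside 0.52 for all genes with 4 values.

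The rest of the pathway gave 0 calls as well, with 12 genes of ubiquitin, its relatives and E1 enzymes, 5 other E2s, 22 other deubiquitinases and SUMO proteases, and 28 HECT and cullin ligase genes tested. Their medians were -0.035, -0.14, -0.047 and 0.015, beside -0.016 for all genes. Rps27a, which encodes ubiquitin fused to a ribosomal protein, had a mean log2 ratio of -0.81 ± 0.26 (SE, n = 4), and Ubb, which encodes a chain of ubiquitins, had -0.060. At an unadjusted p under 0.05 were Rps27a and Rnf7 on the lower side (3.44% of all genes) and Cul3 and Arel1 on the higher (0.722%). Without replicate 1 the ligase list had 0 lower and 3 higher, beside 4.60% and 6.33% of all genes, so the call of Rnf7 was lost. In that setting the list of ubiquitin and E1 enzymes had 2 lower and 0 higher. The other deubiquitinases had 1 lower and 0 higher, and the other E2s had 0 on either side. Cul3, a cullin scaffold, had 0.60, 0.35, 0.41 and 0.78 on replicates 1 to 4, and the RING protein Rnf7, detected on 1 array in the treated channel, had a mean of -0.90. The 2 smallest p values of the other lists belonged to Aktip (-0.36) and Cdc34 (0.18), and to Josd2 (-0.41) and Senp8 (-0.33).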

How the data were processed

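Members and lists were chosen with earlier results of these data known. The deposited scanner files hold spot and background intensity in both channels and a log10 ratio of red over green, made by the authors. The submitters' processing notes name Agilent Feature Extraction 9.5.1.1 as the software. The authors' value table equals that log10 ratio to within 5e-10, with the same scale and direction, and served as an alternative. Positions of probes are in mm7, per the file headers. Normexp (offset 50) corrected the background and loess normalised each array, control spots at weight 0, with limma 3.58.1 in R 4.3.3. Control spots and outlier spots were left out; 0 spots were saturated. The filter kept 8115 probes for 6921 genes, 6864 with 4 values. Log2 ratios were tested against 0 with lmFit and eBayes, called at an adjusted p of 0.05. SE is each gene's own SD over the root of n, and p comes from the moderated test. Signals per channel were further scaled by Aquantile. Names came from the files; of the member probes 133 matched RefSeq (GRCm38.p6, for names only) by accession, 54 by symbol and 1 by synonym, and 4 further probes whose accession matches a member but whose file name does not were left apart. The script was tested on simulated data. Members named with array values were those of 1 sign on all arrays, the 8 of each group with the smallest p, 11 chosen by role (where tested), and those whose probes disagree. Other genes of the pathway came from fixed lists, with the 2 smallest p of each. Some items are not reported here by name, though the counts and medians include them. Alternatives covered background, normalisation, filter, probe choice, eBayes, weights, deposited values, leaving out arrays and turning the sign of replicate 1.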

Additional observations from a re-analysis of the deposited data

Results flagged for a closer look

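Of 29 sets of 4 array values examined, 3 had a single array that stood away from the rest; about 5% do so by chance. Usp47 had a log2 ratio of 0.11 on replicate 2, against -0.82 to -0.71 on the others. Usp54 had -1.34 on replicate 4, against -0.20 to -0.10. At the 99th percentile of net signal, treated over control came to 2.56 for replicate 1 and to 0.25 to 0.39 for the others.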

How the results depend on the processing

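Under every alternative run, 0 members and 0 genes passed; the lowest adjusted p from limma among members was 0.097 with replicate 1 turned and 0.24 without replicate 1. The test was itself a paired one, since every ratio compares the treated and control pools of 1 array, and no further pairing was run. A slide block was not run, with 1 slide. Median centring moved the Ube2 median to -0.60, the Usp median to -0.50, their difference to -0.11 and the median of all genes to -0.34, and the latter was -0.12 with the authors' values or with processed signals, where the Usp median was -0.29; it was -0.30 with replicate 1 turned. Leaving out 1 array gave -0.14 to 0.044 for the Ube2 median, -0.26 to 0.035 for Usp and -0.13 to 0.15 for their difference. Among the members named with array values, signs turned with median centring for Ube2d3 (-0.62), Ube2r2 (-0.23), Ube2s (-0.29) and Usp9x (-0.030). They turned with replicate 1 turned for Ube2d3 (-0.21), Ube2e2 (0.32), Ube2n (0.080), Usp30 (-0.12), Usp4 (0.089), Usp46 (-0.24) and Usp9x (-0.64), and with the mean over probes for Ube2d3 (-0.039), Ube2n (0.20), Usp19 (0.13), Usp34 (0.11) and Usp4 (0.017). With processed signals and with the authors' values Ube2d3 was at -0.11 and Usp19 at 1.37. Array weights put Ube2d3 at -0.37, and Usp19 was at 0.076 with no background subtraction and at 0.29 with both channels detected on 4 arrays. Of all 44 tested members reported by name, leaving out 1 array turned 24 and turning replicate 1 turned 11; among those with array values the former were Ube2a (-0.74 to 0.13), Ube2c (-0.10 to 0.058), Ube2d3 (-0.22 to 0.42), Ube2n (-0.18 to 0.044), Ube2s (-0.099 to 0.27), Ube2w (-0.66 to 0.22), Usp16 (-0.65 to 0.045), Usp19 (-0.45 to 0.25), Usp33 (-0.31 to 0.046), Usp4 (-0.23 to 0.024) and Usp9x (-0.082 to 1.06). The cause was not tested. Members under an unadjusted p of 0.05 numbered 1 to 4 on the lower and 0 to 3 on the higher side over the settings, beside 1.03% to 6.44% and 0% to 8.12% of all genes, and the number of arrays and the dim signal of the untested members limit what could be seen.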
